A study of Mus musculus with 3 samples.

Results

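The genes described here make cholesterol, sense it, take it up and send it out of the cell. They are 36 genes chosen by symbol from the 55536 annotated genes of the deposited tables, and all 36 were found. Chromatin-bound RNA was measured in 3 libraries of macrophages (BMDM) that had been grown as primary cells from bone marrow of C57BL/6J mice. All 3 libraries were from cells that had received Lipid A, the part of bacterial lipopolysaccharide sensed by Toll-like receptor 4, at 100 ng/ml for 12 h. After 12 h of washout the cells had received 100 ng/ml again for 60 min. There was no untreated arm, so every value below is a level in dosed cells and not a response to Lipid A. Replicates 1, 2 and 3 started from 1000, 250 and 500 ng of RNA. The labels give them the same donor entry, record neither age nor sex, and leave unsaid whether the cells came from different animals or cultures. A p-value therefore measures only the spread between these samples.

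Cells control cholesterol through a pair of opposing transcription factor systems. When membranes are poor in cholesterol, the protein SCAP carries SREBP2 from the endoplasmic reticulum to the Golgi, where it is cut and released to switch on the genes of synthesis and uptake. When sterols are plentiful, INSIG proteins hold SCAP back, and oxysterols activate the liver X receptors (LXR), which switch on genes of efflux. Macrophages rely on this efflux arm because they engulf cholesterol-rich lipoproteins and dying cells. RNA held on chromatin includes nascent transcripts and those not yet released into the nucleoplasm.

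Promoter sequences of SREBP2 and LXR targets are shown first, with the letters that each carries. The windows were the 250 bases before each start in RefSeq (build GRCm38.p6), and 29 of the 36 genes had at least 1 window, 40 windows in all. Abcg1, Npc1, Scd2, Stard4, Fdps, Sqle and Fdft1 were not matched. Hmgcs1 encodes HMG-CoA synthase of the mevalonate pathway and Insig1 encodes the INSIG protein that SREBP2 itself induces. Abca1 encodes the pump that loads cholesterol onto apolipoprotein A-I. In the sequences below, read 5′ to 3′ on the strand of the gene, capitals mark the sterol regulatory element letters TCACNCCAC and the NF-Y box CCAAT, which reads ATTGG on the other strand. The Insig1 sequence stops where the GENCODE gene begins.
Hmgcs1, chr13:119690101-119690350, + strand: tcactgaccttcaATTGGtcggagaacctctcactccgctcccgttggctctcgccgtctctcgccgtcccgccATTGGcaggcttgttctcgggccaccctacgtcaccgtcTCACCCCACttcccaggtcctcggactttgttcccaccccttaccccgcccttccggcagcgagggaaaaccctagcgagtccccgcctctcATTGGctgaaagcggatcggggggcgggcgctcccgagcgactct
Insig1, chr5:28071162-28071362, + strand: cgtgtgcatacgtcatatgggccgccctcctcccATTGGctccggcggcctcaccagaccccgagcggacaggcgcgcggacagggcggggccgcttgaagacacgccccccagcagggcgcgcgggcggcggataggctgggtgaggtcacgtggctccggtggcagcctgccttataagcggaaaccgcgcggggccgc
Abca1, chr4:53159896-53160145, - strand: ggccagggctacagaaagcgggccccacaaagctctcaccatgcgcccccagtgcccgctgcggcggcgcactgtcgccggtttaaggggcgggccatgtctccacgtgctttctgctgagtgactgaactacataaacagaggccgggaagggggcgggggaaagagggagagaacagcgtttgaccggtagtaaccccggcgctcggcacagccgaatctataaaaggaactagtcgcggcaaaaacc
Hmgcs1 was the only member with TCACNCCAC, on the + strand 137 to 129 bases before the RefSeq start, where 1.05% of all 32851 RefSeq windows carried it on either strand. The Hmgcs1 window also held 3 CCAAT boxes on the opposite strand, starting 237, 176 and 45 bases before the start. Insig1 held 1 such box, and Abca1 held neither motif.

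CCAAT stood in 15 of the 16 SREBP2 targets with a window, all but Acat2, and in 3 of 5 LXR targets (Lpcat3, Mylip and Srebf1). No test of this difference was made. Counted by window it was 78.9% of 19 SREBP2 windows and 44.4% of 9 LXR windows, beside 33.8% of all windows. The Msmo1 window held 3 boxes, 160, 96 and 55 bases before its start. A pair of GAAA runs spaced by 2 bases, as in interferon-stimulated response elements, was found in Ebp alone, beside 2.98% of all windows. An exact pair of AGGTCA repeats spaced by 4 bases, the layout of LXR elements, was in none of the 40 windows. Only 0.0152% of all windows carried it. Such a rare match could hardly be met in 40 windows, and elements with other letters in this layout were not searched for. These are matches of letters in a short window and not sites of binding, and no match says only that the letters are not in it.

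The 3 libraries held 12602702, 17222239 and 17042691 gene counts in replicates 1, 2 and 3, and a level of 3 counts was 0.174 to 0.238 CPM. All 10 macrophage markers had at least 10 TPM (abundance scaled for transcript length and library size) in every library. Replicate 2 stood apart. The 11 fibroblast and stromal markers summed to 0.08, 938 and 2.95 TPM in replicates 1, 2 and 3, and all 11 were highest in replicate 2, led by the collagen gene Col1a1. All 7 neutrophil and all 4 adipocyte markers were undetected, with at most 3 counts in each library, and 4 endothelial markers summed to 4.81 to 5.79 TPM. In bulk RNA, fewer cells of a type and less RNA per cell cannot be told apart.

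All 36 members were detected, as were 13841 of the 15865 protein-coding genes with a count. The median level of the members was 6.67 ± 2.24 TPM (SD, n = 3), beside 2.51 ± 1.29 TPM for those genes. At least 10 TPM in every library was reached by 14 of 36 members, beside 23.2% of those protein-coding genes. Abca1 and Npc2 reached at least 100 TPM in every library, as did 474 of the 15865 protein-coding genes. The levels differed by role. The 18 enzymes of synthesis had a median of 3.86 ± 1.43 TPM, and 2 of them, Hmgcs1 and Msmo1, had at least 10 TPM in every library. The medians were 30.4 ± 12.0 TPM for 5 genes of the SREBP machinery, 37.9 ± 14.2 TPM for 4 genes of transport and esterification, and 64.6 ± 9.56 TPM for Ch25h and the LXR receptor genes Nr1h2 and Nr1h3.

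**Figure D1:**
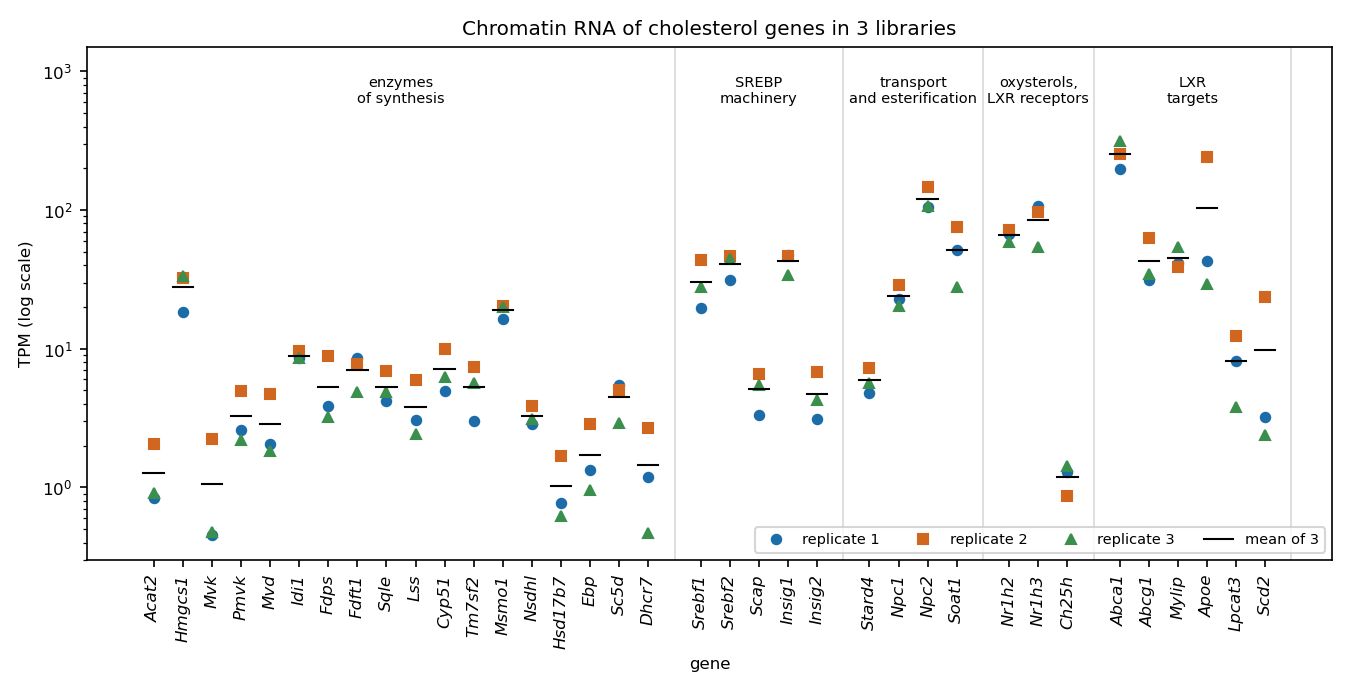
TPM on a log axis for each of the 36 genes, grouped by role, with 1 point per library and a bar at the mean of 3 libraries. Most enzymes of synthesis lie between 1 and 10 TPM, Abca1 is above 100 TPM in every library, and replicate 2 is far above the other libraries for Apoe and Scd2.

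Among the early enzymes, which build isoprenoid units from acetyl-CoA, Hmgcs1 (ENSMUSG00000093930.2, mm10 chromosome 13, 119690379 to 119708260, + strand) was highest. It had 18.4, 32.2 and 33.5 TPM in replicates 1, 2 and 3, from 591, 900 and 1060 counts, with a mean of 28.1 ± 8.37 TPM (SD, n = 3). Replicate 1 was the low library in TPM, while in TMM-scaled CPM the values were 46.4, 46.4 and 70.8 and replicate 3 was high. Idi1, which isomerises isopentenyl diphosphate, varied little between libraries, with 8.54, 9.61 and 8.52 TPM. The kinases and the decarboxylase between them were low: Mvk had 1.05 ± 1.01 TPM, Pmvk 3.24 ± 1.51 TPM and Mvd 2.86 ± 1.59 TPM. Acat2, the thiolase that opens the pathway, had 1.27 ± 0.691 TPM, and Fdps, which makes farnesyl diphosphate, had 5.32 ± 3.11 TPM. Mvk rested on 10, 40 and 12 counts in replicates 1, 2 and 3. Without replicate 2, where stromal markers were high, the mean was 0.465 TPM for Mvk and 3.54 TPM for Fdps. By kallisto Mvd had 7.44 TPM. Hmgcs1 stood 40.9, 14.5 and 69.8 times above Mvk in TPM across the libraries.

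The sterol-forming steps were led by Msmo1, the C4-methyl sterol oxidase, which had 16.5, 20.3 and 20.0 TPM. All 3 libraries lay near the mean of 18.9 ± 2.13 TPM. Squalene is made by Fdft1, at 7.06 ± 1.91 TPM, and oxidised by Sqle, at 5.31 ± 1.37 TPM, and Lss, which closes the rings to lanosterol, had 3.82 ± 1.89 TPM. Demethylation and reduction followed with Cyp51 at 7.10 ± 2.61 TPM, Tm7sf2 at 5.34 ± 2.18 TPM, Nsdhl at 3.26 ± 0.515 TPM and Hsd17b7 at 1.03 ± 0.579 TPM. The last steps were the isomerase gene Ebp with 1.71 ± 1.01 TPM, the desaturase gene Sc5d with 4.46 ± 1.34 TPM and the reductase gene Dhcr7 with 1.45 ± 1.13 TPM. Ebp had 12, 31 and 10 counts and Dhcr7 8, 59 and 15 counts in replicates 1, 2 and 3. Without replicate 2 their means were 1.14 TPM for Ebp and 0.83 TPM for Dhcr7. The level of Dhcr7 also rested on the estimate, with 4.70 TPM as posterior mean and 5.37 TPM by kallisto.

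In the SREBP machinery, Insig1, Srebf2 and Srebf1 were higher than most of the enzymes, while Scap and Insig2 lay within the range of the enzymes. Insig1 (ENSMUSG00000045294.11, chromosome 5, 28071363 to 28078662, + strand) had 47.5, 46.9 and 34.1 TPM, the highest SREBP2 target of each library in RSEM-layout TPM. By kallisto TPM Hmgcs1 was higher than Insig1 in replicates 2 and 3, at 41.0 against 37.0 and 48.6 against 28.5 TPM. Its relative Insig2 had 4.73 ± 1.91 TPM, so that Insig1 exceeded Insig2 by 15.3, 6.86 and 7.998 times in replicates 1, 2 and 3. By kallisto TPM the excess was 8.41, 4.47 and 3.28 times, and the posterior mean of Insig2 was 10.9 TPM. Srebf2, the gene of SREBP2, had 31.0, 46.3 and 44.2 TPM and Srebf1, which mainly serves fatty acid synthesis, had 19.8, 43.4 and 28.03 TPM. The ratio of Srebf2 to Srebf1 was 1.57, 1.07 and 1.58, lowest in replicate 2. Scap, which escorts the SREBPs, had 5.12 ± 1.62 TPM, below Srebf2 by a factor of 8.14 ± 1.09. By kallisto Scap had 8.11 TPM, and the factor was 9.53, 6.05 and 3.76 in replicates 1, 2 and 3.

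Of the genes that move and store cholesterol, Npc2 was highest. Npc2 encodes the small lysosomal protein that hands cholesterol to the membrane protein of Npc1. It had 104, 147 and 107 TPM, and Npc1 had 22.7, 28.8 and 20.4 TPM, a ratio of 4.61, 5.12 and 5.23. Soat1, whose enzyme esterifies cholesterol for storage in droplets, had 51.8, 76.0 and 27.7 TPM, with replicate 2 high and replicate 3 low. Stard4, a soluble cholesterol carrier that SREBP2 controls, had 5.92 ± 1.25 TPM. Ch25h, which makes 25-hydroxycholesterol, was low at 1.28, 0.87 and 1.42 TPM from 23, 13 and 23 counts, and its overlap partner on the other strand, Gm26902, had at most 0.27 TPM.

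The receptor gene Nr1h3 (LXR alpha) had 106, 96.2 and 53.9 TPM and Nr1h2 (LXR beta) had 67.5, 72.3 and 58.8 TPM. Nr1h3 was the higher of the pair in replicates 1 and 2 and the lower in replicate 3, with ratios of 1.57, 1.33 and 0.916, and by kallisto TPM the ratios were 1.27, 1.57 and 1.02. Their order in replicate 3 thus turned on the quantification. Among their targets Abca1 (ENSMUSG00000015243.4, chromosome 4, 53030787 to 53159895, - strand) was the highest member of all, with 199, 253 and 315 TPM from 27751, 32657 and 43785 counts. Its relative Abcg1, which moves cholesterol to larger lipoproteins, had 31.1, 63.1 and 34.3 TPM. The ratio of Abca1 to Abcg1 was 6.40, 4.01 and 9.18. Mylip, whose ligase degrades the receptor for low-density lipoprotein, had 41.6, 38.6 and 54.1 TPM. Lpcat3, which puts polyunsaturated chains into phospholipids, had 8.16, 12.4 and 3.78 TPM.

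Apoe and Scd2 differed most between libraries. Apoe, the apolipoprotein that macrophages secrete with cholesterol, had 42.8, 240.4 and 29.1 TPM, and Scd2, a stearoyl-CoA desaturase, had 3.20, 23.6 and 2.40 TPM from 171, 1568 and 163 counts. Both were high in replicate 2 alone, 6.68 times and 8.41 times the mean of the other libraries, and the stromal markers were high in the same library. Without replicate 2 their means were 35.98 TPM for Apoe and 2.80 TPM for Scd2. The part of the stromal RNA in these levels was not tested.

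Levels of SREBP2 targets and LXR targets were compared within each library. The 20 SREBP2 targets were the 18 enzymes with Insig1 and Stard4. The 7 LXR targets were Abca1, Abcg1, Mylip, Apoe, Lpcat3, Scd2 and Srebf1, and Srebf2 was in neither list. Levels of different genes in 1 group do not measure the activity of SREBP2 or LXR. The SREBP2 targets had a median of 3.48, 6.42 and 3.15 TPM in replicates 1, 2 and 3, and the LXR targets 31.1, 43.4 and 29.1 TPM. The LXR targets were the higher list in each library. As a difference of mean log2(TPM + 1), SREBP2 targets minus LXR targets was -2.39, -2.93 and -2.41, with a mean of -2.58 ± 0.30 (SD, n = 3). No p is given, since the lists were chosen with results of these libraries known. The lists overlapped: 6, 7 and 6 of the 7 LXR targets lay above the SREBP2 median in TPM, and 1, 1 and 2 of the 20 SREBP2 targets lay above the LXR median. Scd2 was the lowest LXR target in replicates 1 and 3, and Lpcat3 was the lowest in replicate 2. Without Apoe and Scd2, the pair with the large excess in replicate 2, the difference was -2.84 ± 0.11, and without replicate 2 it was -2.40 ± 0.02. At least 10 TPM in every library was reached by 3 of 20 SREBP2 targets (Hmgcs1, Msmo1 and Insig1) and by 5 of 7 LXR targets, beside 23.2% of protein-coding genes.

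**Figure D2:**
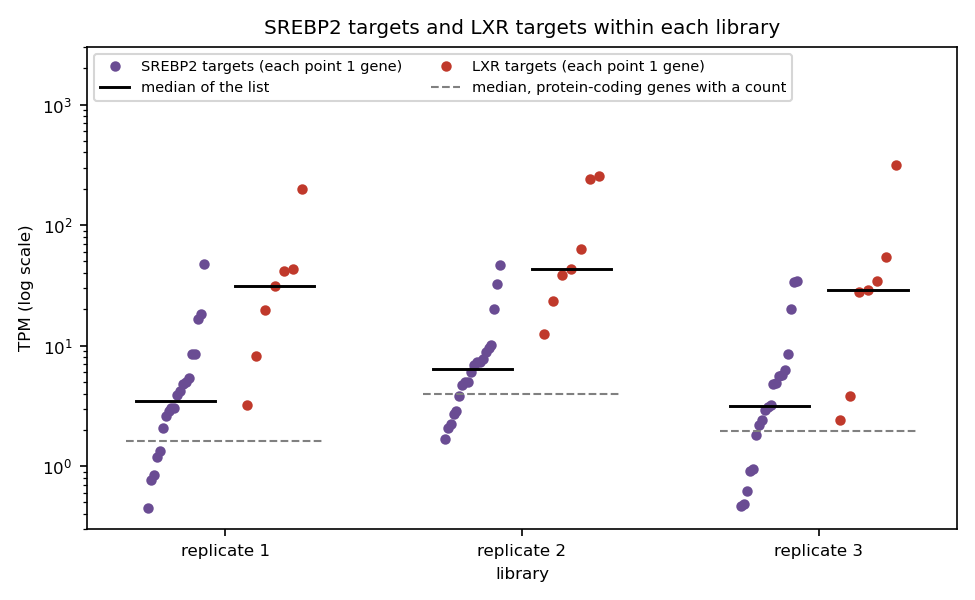
TPM on a log axis within each library, with 1 point per gene for the 20 SREBP2 targets and the 7 LXR targets, a bar at each list's median and a dashed line at the median of protein-coding genes with a count. The LXR median is above the SREBP2 median in each library, while single genes of the lists overlap.

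On the TPM scale 28 of the 36 members were highest in replicate 2, 4 in replicate 1 and 4 in replicate 3. The background was as high, since 77.1% of 10011 protein-coding genes with a mean of at least 1 TPM were also highest there. Their median ratio of replicate 2 to the mean of replicates 1 and 3 was 1.54, and that of the members was 1.61. With counts scaled by TMM, a setting added after seeing the data, the median ratios were 1.02 for those genes and 1.14 for the members. Then 19 members were highest in replicate 2, beside 41.9% of the genes. Scd2, Dhcr7, Apoe and Mvk had the largest ratios on the TMM scale, at 6.64, 3.73, 3.62 and 2.60, and Dhcr7 and Mvk rested on few counts. Abca1, Mylip and Ch25h were below 1 on either scale, with TMM ratios of 0.659, 0.517 and 0.401. For 13 members the scale decided the direction. Insig1, Hmgcs1 and Nr1h3 were among them, with TPM ratios of 1.15, 1.24 and 1.20 and TMM ratios of 0.748, 0.791 and 0.832.

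**Figure D3:**
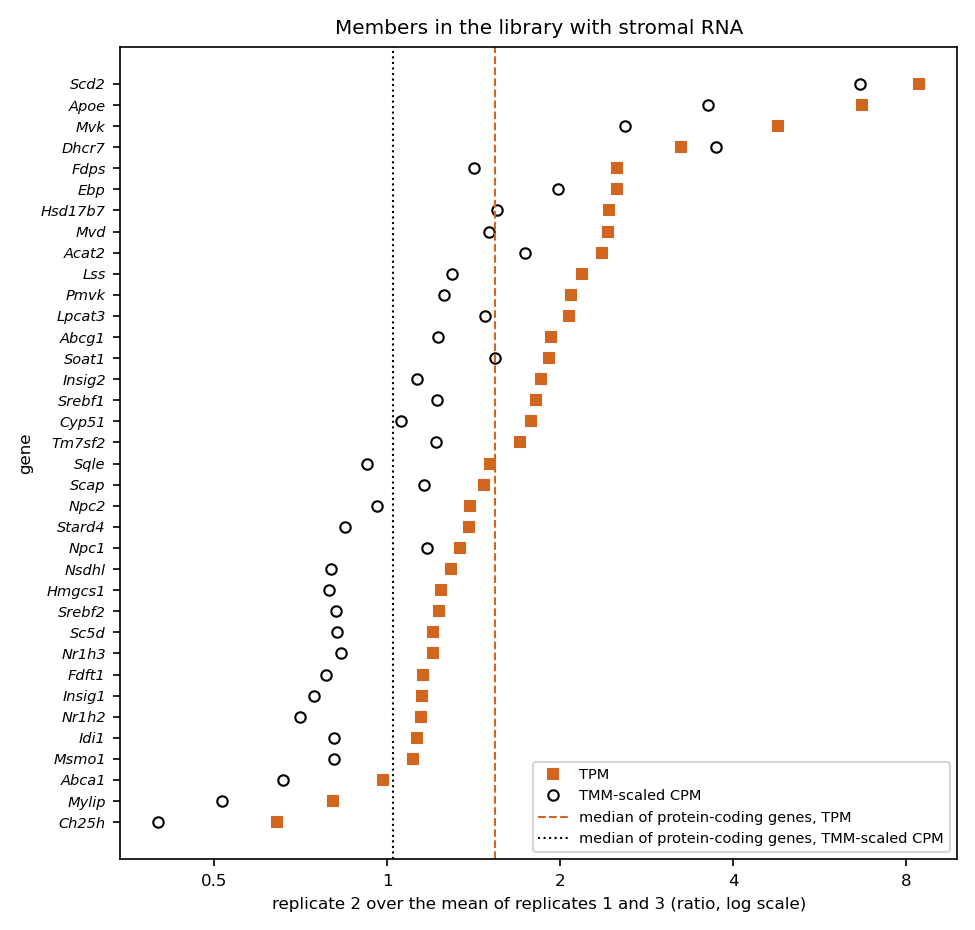
Ratio of replicate 2 to the mean of replicates 1 and 3 for each member on a log axis, in TPM (squares) and TMM-scaled CPM (open circles), with the median of protein-coding genes as a dashed line (1.54, TPM) and a dotted line (1.02, TMM-scaled CPM). Scd2 and Apoe are far to the right on either scale, and Ch25h, Mylip and Abca1 lie left of both lines.

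A slope on starting quantity was fitted with edgeR to 14001 genes, and 1.56% passed a Benjamini-Hochberg adjusted p of 0.05. Of the 36 members Scd2 passed, with a log2 slope of -1.31 per doubling of the input (edgeR adjusted p = 0.01941). DESeq2 gave Scd2 an adjusted p of 0.0681, and with kallisto counts no member passed in edgeR. The lowest quantity was that of replicate 2, the library with the stromal RNA, so quantity and stromal RNA cannot be told apart.

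Transcript tables allowed the annotated isoforms to be compared. Retained-intron RNA here means TPM assigned to transcripts annotated as retaining an intron. Chromatin RNA includes nascent transcripts, so retained introns and introns not yet spliced out cannot be told apart. The members have 226 transcripts, of which 128 are annotated as protein coding and 67 as retaining an intron, and 26 members have both kinds. Of 4311 genes tested across the annotation with limma on the log2 ratio of retained-intron to protein-coding TPM, 24.3% had more retained-intron RNA and 25.6% more protein-coding RNA, at a Benjamini-Hochberg adjusted p under 0.05. Of the 20 members with enough signal to be tested, 1 had more retained-intron RNA, 8 had more protein-coding RNA and 11 passed in neither direction. Their median log2 ratio was -0.74, beside -0.06 over all genes tested. With kallisto TPM 22 members were tested, of which 6 had more retained-intron RNA and 8 more protein-coding RNA, beside 37.2% and 27.7% of genes. The filter of 5 TPM left out 6 members with both kinds of isoform in the RSEM layout.

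Npc2 was the only member with more retained-intron RNA in RSEM-layout TPM under the filter of 5 TPM. Under a minimum of 1 TPM, Ebp also passed (log2 ratio 2.43, limma adjusted p = 0.03376). Lpcat3 and Sqle passed with posterior mean TPM. With kallisto TPM Lss (log2 ratio 2.51, limma adjusted p = 0.001397), Lpcat3 (3.30, 0.003937), Sqle (1.14, 0.00504), Stard4 (1.02, 0.02803) and Npc1 (0.64, 0.04422) passed as well. The Npc2 retained-intron isoforms held 85.8, 119.6 and 89.2 TPM and its coding isoform 18.7, 27.8 and 17.4 TPM in replicates 1, 2 and 3. The ranges did not overlap, and the log2 ratio was 2.21 (SE 0.20, limma adjusted p = 0.003635). The share of retained-intron RNA was 82.3 ± 1.28% of the gene's TPM, carried by isoforms of 728 bases (48.05 ± 6.82 TPM) and 2542 bases (50.2 ± 16.0 TPM). Npc2 also passed under each of the alternatives run for it.

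Apoe lay at the other end, with 22.5, 113.8 and 19.3 TPM of coding isoforms and 0.13, 1.13 and 0.42 TPM of the retained-intron isoform. Its log2 ratio was -6.13 (SE 0.36, limma adjusted p = 0.002921), and 43.8 ± 10.4% of its TPM was in Apoe-202, annotated as a processed transcript. The other LXR target that passed was Abcg1, with a log2 ratio of -1.14 (SE 0.21, limma adjusted p = 0.01454), which was 0.05302 without replicate 1 and 0.08297 without replicate 3. Abca1 has no retained-intron isoform in the annotation, and Abca1-201, the coding isoform, held 188, 245 and 306 TPM. Lpcat3 had more retained-intron TPM in all 3 libraries, 7.40, 7.76 and 2.40 against 0.65, 4.61 and 1.38 TPM, and its log2 ratio of 1.61 missed the threshold (limma adjusted p = 0.0881). It passed with kallisto TPM, as above, and with posterior mean TPM (2.02, limma adjusted p = 0.02484).

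Among 10 SREBP2 targets tested none had more retained-intron RNA and 5 had more protein-coding RNA, beside 24.3% and 25.6% of all genes. With kallisto TPM Lss, Sqle and Stard4 passed for retained-intron RNA, and Sqle also passed with posterior mean TPM (0.71, limma adjusted p = 0.04409). Fdft1 had a log2 ratio of -4.10 (SE 0.77, limma adjusted p = 0.01518), from 0.67, 0 and 0.54 TPM of the retained-intron isoform. Its size was set in part by the pseudocount, since it was -2.40 with a pseudocount of 1 and -2.44 with kallisto TPM, and its adjusted p was 0.0631 without replicate 1. Stard4 had -1.88 (limma adjusted p = 0.005438), Idi1 -1.42 (0.02246), Hmgcs1 -1.16 (0.0149) and Tm7sf2 -0.94 (0.02572). Stard4 and Tm7sf2 changed sign with kallisto TPM. Without single replicates the limma adjusted p reached 0.1156 for Idi1 (without replicate 3; 0.05585 without replicate 2), 0.06224 for Hmgcs1 (without replicate 3; 0.05896 without replicate 1) and 0.09187 for Tm7sf2 (without replicate 3; 0.08062 without replicate 1). Hmgcs1 held 13.2, 22.9 and 21.6 TPM in coding isoforms against 5.21, 9.32 and 11.9 TPM in its retained-intron isoform. Under a minimum of 1 TPM, Nsdhl also passed for protein-coding RNA (log2 ratio -3.72, limma adjusted p = 0.007045). Outside the target lists Soat1 passed at -0.89 (limma adjusted p = 0.04685). It lost its call with each replicate left out (limma adjusted p = 0.06935 to 0.1234) and with kallisto TPM (0.2047). Scap missed the threshold at -2.13 (limma adjusted p = 0.05463). It passed for protein-coding RNA with a pseudocount of 1 (0.04016), kallisto TPM (0.02439) and posterior mean TPM (0.03825). Insig2 passed in that direction with posterior mean TPM (-1.31, limma adjusted p = 0.01956).

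Insig1 and Srebf2 passed in neither direction in RSEM-layout TPM. Insig1 had 28.1, 23.2 and 15.8 TPM in its retained-intron isoform and 19.4, 23.7 and 18.3 TPM in its coding isoform, with a log2 ratio of 0.10 (95% interval -0.55 to 0.74). Replicate 1 had more of the first and replicate 3 more of the second. Srebf2 had 17.8, 25.7 and 24.6 against 13.3, 20.6 and 19.6 TPM, a log2 ratio of 0.35 (95% interval -0.16 to 0.87). With kallisto TPM Srebf2 passed for protein-coding RNA, at -0.62 (limma adjusted p = 0.03811). Srebf1 has no retained-intron isoform in the annotation, and 62.3 ± 1.38% of its TPM lay in isoforms that are not protein coding.

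**Figure D4:**
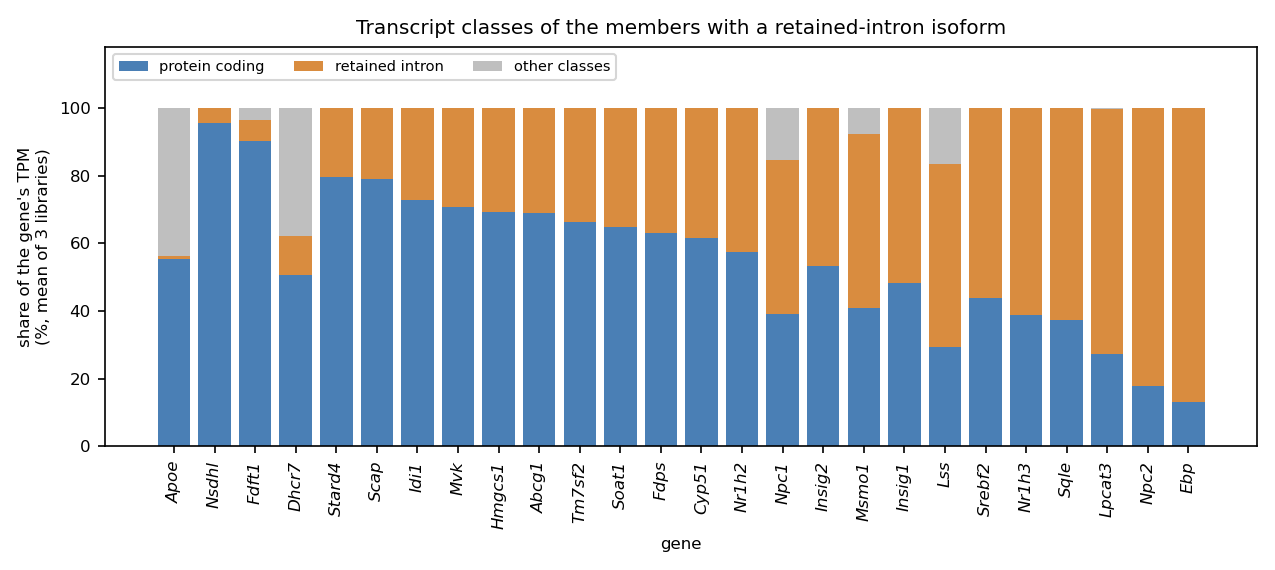
Share of each gene's TPM in protein-coding, retained-intron and other annotated transcripts, as the mean of 3 libraries, for the 26 members with both a coding and a retained-intron isoform. Npc2 and Ebp are mostly retained intron, and Nsdhl and Fdft1 are mostly protein coding.

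The kallisto tables assigned more reads, 19502402, 30678687 and 29638293 counts in replicates 1, 2 and 3, and divided them differently. Summed by gene, kallisto TPM was higher than RSEM-layout TPM for 26 of 36 members, and by more than 1.5 times for 9, led by Dhcr7 (3.70 times), Stard4 (3.12 times), Mvd (2.61 times) and Lss (2.09 times). Of 10011 protein-coding genes with a mean of at least 1 TPM, 69.9% were higher with kallisto and 29.3% by more than 1.5 times, so the members' shares were near the background. The isoform ratio changed sign for 4 members in addition to these shifts of level. Stard4 moved most, since its retained-intron isoform Stard4-204 held 1.08, 1.58 and 0.97 TPM in the RSEM layout and 7.25, 14.9 and 15.7 TPM in the kallisto layout. Its log2 ratio was then 1.02, in favour of retained-intron RNA. Tm7sf2 had 0.51 (0.1612), Msmo1 -0.77 (0.01517) and Srebf2 -0.62 (0.03811) with kallisto TPM. Apoe, Npc2, Fdft1, Abcg1, Idi1 and Hmgcs1 kept their calls.

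**Figure D5:**
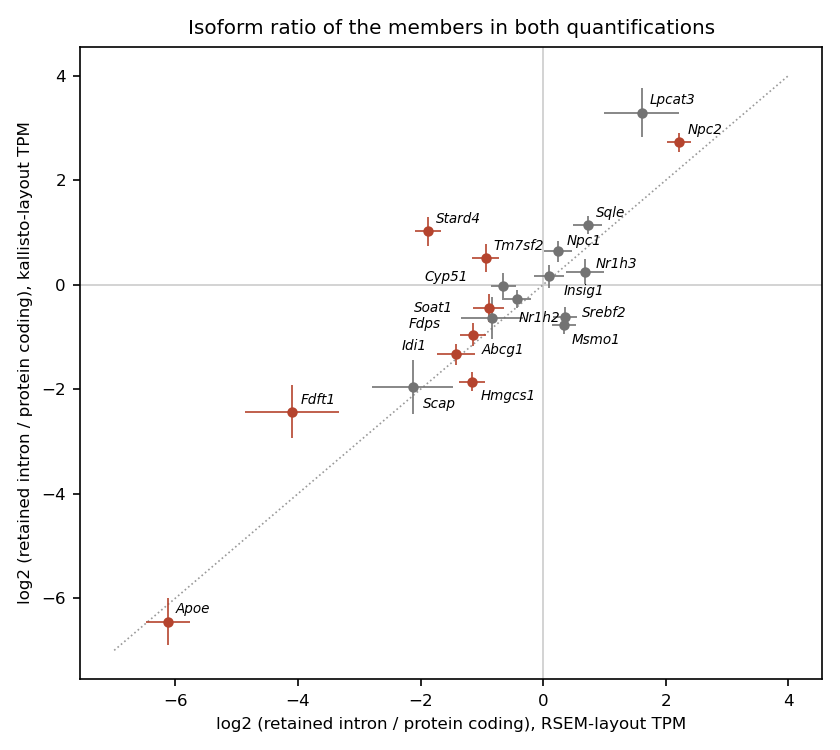
Log2 ratio of retained-intron to protein-coding TPM for members tested in both quantifications, RSEM layout on the horizontal axis and kallisto layout on the vertical axis, with limma standard errors. Red points passed the test in the RSEM layout, the dotted line marks equal ratios, and Stard4 and Tm7sf2 lie on opposite sides of 0 in the 2 layouts.

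Several members share bases with another gene, and the strand setting of the counting is not given in the sources used here. Reads that lie in the shared bases therefore cannot be told apart, while reads elsewhere in these genes are not affected. For Fdft1, Cyp51, Tm7sf2, Npc1, Srebf1 and Lpcat3 the genes named below share only an end of the member. Fdft1, for example, spans 63145150 to 63179578 on chromosome 14, and Ctsb ends at 63145923. Hmgcs1 lies over the antisense gene Gm48342, which had 7.38, 8.84 and 11.5 TPM. Fdft1 lies over part of Ctsb, a cathepsin gene with 313, 427 and 288 TPM on the opposite strand, and Cyp51 over part of Akap9 with 26.5, 43.4 and 30.2 TPM. Tm7sf2 overlaps Vps51 on the same strand, which had 20.7, 30.2 and 22.2 TPM and so exceeded Tm7sf2 in every library. Npc1 shares an end with Rmc1 at 22.2 ± 3.19 TPM, Srebf1 with Rai1 at 13.9 ± 3.51 TPM and Lpcat3 with Emg1 at 8.83 ± 3.96 TPM. Mvd lies within the long readthrough gene Gm20388, which had 0.15, 8.72 and 2.01 TPM, and 530, 425 and 98 kallisto counts.

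Srebf2 also hosts a microRNA, Mir33, in its intron, which is known to target Abca1 mRNA. Its mature 5′ arm is shown with the seed, bases 2 to 8, in capitals, from RefSeq (GRCm38.p6).
mmu-miR-33-5p, chr15:82198127-82198147, + strand: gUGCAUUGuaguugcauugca
Mir33 was listed at 0 counts in the RSEM layout and had 4, 6 and 2 kallisto counts in replicates 1, 2 and 3. Libraries of fragments of 250 to 400 bases do not measure mature microRNAs, so these counts concern the host RNA. Another overlapping gene on the same strand, Gm49502, held 15.0, 19.0 and 17.4 TPM within Srebf2.

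A list of 30 related lipid genes gave a wider view of the pathway. Its median was 8.58 ± 4.21 TPM, beside 2.51 ± 1.29 TPM for the 15865 protein-coding genes with a count. Of the 30 genes 29 were detected, as were 13841 of those protein-coding genes. At least 10 TPM in every library was reached by 10 of 30, beside 23.2%. The highest were the cholesterol transfer protein genes Gramd1a, with 172, 298 and 235 TPM, and Gramd1b, with 166, 136 and 162 TPM, and Nfya, a subunit of the factor that binds CCAAT, with 93.6, 93.1 and 93.5 TPM. Gramd1a and Gramd1b thus lay between Npc2 and Abca1 in mean TPM. Nfyb and Nfyc, the genes of the other subunits of the CCAAT factor, were lower at 4.95 ± 2.45 and 4.38 ± 1.77 TPM. Cyp46a1, the 24-hydroxylase of neurons, was undetected with 1, 2 and 1 counts. In the isoform test 14 of the 30 were tested, 3 had more retained-intron RNA and 5 more protein-coding RNA, beside 24.3% and 25.6% of all genes. The first were Gramd1a at a log2 ratio of 3.44 (limma adjusted p = 0.007612), Mbtps1, the protease that cuts SREBPs in the Golgi, at 2.26 (0.01661), and Nfya at 0.75 (0.03257). The others were Acaca at -3.88 (limma adjusted p = 0.003002), Pltp at -3.09 (0.005258), Nceh1 at -2.51 (0.003293), Lipa at -1.65 (0.007478) and Gramd1b at -1.16 (0.01649). Lipa and Nceh1 encode hydrolases of cholesteryl esters, Acaca starts fatty acid synthesis and Pltp transfers phospholipids between lipoproteins.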

How the data were processed

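Total RNA, depleted of ribosomal RNA, of the chromatin fraction was measured in 3 libraries of 1 group, and per the labels the build was mm10. The authors deposited expected counts, TPM and posterior mean TPM per gene and per transcript in RSEM's layout, on GENCODE M21. Transcript tables with estimated counts and TPM were deposited by the authors in the layout of kallisto. Aligner, strandedness and software versions are not given in the sources. Rows that name no gene held 1.94, 0.269 and 0.386% of counts in replicates 1, 2 and 3 and were left out.

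The members and lists were chosen with earlier results of these data known. All 36 members were named with their values. Of the related genes the 3 highest, the lowest and those past the isoform threshold were named, with Nfyb and Nfyc added beside Nfya. SDs are over 3 libraries. List levels were compared as mean log2(TPM + 1) within a library. Isoforms were compared in R 4.3.3 with limma 3.58.1, as log2 of summed retained-intron TPM over summed protein-coding TPM, each plus 0.1, over genes with both classes and a summed mean of at least 5 TPM. Expected counts were rounded for the slope, which used the quasi-likelihood test of edgeR 4.0.16 with TMM scaling and filterByExpr, with DESeq2 1.42.0 as an alternative. Both fits ran over all genes with Benjamini-Hochberg adjustment, and tests are two-sided. They were tested on simulated data whose planted effects were larger than most of the calls reported here, and with no library set apart. Recovery of smaller effects was not tested. Undetected means at most 3 counts in each library, which covers counting error only. Chi-square per gene between libraries was 68.6 to 115, so no library was a copy.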

Additional observations from a re-analysis of the deposited data

How the results depend on the processing

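SREBP2 targets lay below LXR targets in mean log2(TPM + 1) under every alternative run, with differences of -3.003 in CPM and -3.07 without Srebf1 and Scd2 as the shifts beyond the SD of 0.30. A minimum mean of 1 TPM removed no gene from either list. With kallisto TPM the list medians were 6.83 TPM for SREBP2 targets and 43.5 TPM for LXR targets. Across all genes, kallisto TPM gave 1810 genes with more retained-intron RNA in place of 1049. Leaving out a replicate gave 351 to 901 such genes, and 473 to 849 in place of 1104 with more protein-coding RNA. Genes with a slope on starting quantity numbered 219, and 126 with DESeq2, 1348 with no filter and 51 with kallisto counts, and no replicate could be left out of that fit. The cause of these shifts was not tested. Of 155 isoform ratios of members under alternatives, 126 kept direction and side of the threshold, 16 lost it, 8 gained it and 5 reversed. The reversals were the 4 with kallisto TPM, Stard4 (1.02), Tm7sf2 (0.51), Msmo1 (-0.77) and Srebf2 (-0.62), and Insig1, which ranged from -0.12 to 0.25 when a replicate was left out. Soat1 lost its call in 6 settings, among them each left-out replicate, and Hmgcs1, Idi1, Fdft1, Tm7sf2 and Abcg1 each lost theirs without 1 or more single replicates. The Npc2, Apoe and Stard4 calls held in each left-out replicate. Of 180 alternative levels of members, 21 moved by more than the SD. No paired analysis was possible because there was 1 group. With 3 libraries and as few as 8 counts (Dhcr7 in replicate 1), depth limits the lowest enzymes.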
